A study of Homo sapiens with 28 samples.

Results

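Broad H3K27ac domains of SW872 liposarcoma cells were taken as genomic regions that carried very long peaks in most libraries. All peaks of the 14 peak lists that overlapped or touched were merged into 138757 regions. A merged region was kept as a domain where at least 10 of the 14 lists held a single peak of at least 5 kb inside it. This left 498 domains, or 0.359% of the merged regions, with a summed length of 12.6 Mb. Peak length in each list chose these regions, so the breadth of the domains and their presence in most lists are given as a description and were not tested.

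SW872 is an established human liposarcoma line, and the lists came from chromatin immunoprecipitation with an antibody against H3K27ac followed by sequencing. The 7 labels had 2 libraries each, described as biological duplicates. One label was an empty vector. The others were TAZ-CAMTA1 and YAP-TFE3, the gene fusions of epithelioid hemangioendothelioma, the active forms TAZ4SA and YAP5SA, which carry serine-to-alanine changes that remove inhibitory phosphorylation by the Hippo kinases, and the full-length fusion partners CAMTA1 and TFE3. All constructs were introduced by retrovirus into pooled stable lines selected with G418, so the endogenous TAZ and YAP genes were present in every group. Per the labels, cells were collected near confluence except those labelled CAMTA1, which were collected at sub-confluence, whereas the study's ChIP methods describe the same density for all constructs.

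The construct written in the names of the individual peaks differed from the label in 14 of 14 lists. Peaks named for CAMTA1 stood under the label empty vector, peaks named for the empty vector under TAZ4SA, peaks named for TAZ4SA under TAZ-CAMTA1 and peaks named for TAZ-CAMTA1 under CAMTA1. Likewise, peaks named for TFE3 stood under YAP5SA, peaks named for YAP5SA under YAP-TFE3 and peaks named for YAP-TFE3 under TFE3. Both libraries of a label carried the same construct, so which libraries form a pair does not depend on the naming, while every statement on a construct does. Libraries are called by their labels throughout. The labels' extraction text names an antibody against the Flag tag, whereas the antibody field and the study's methods name H3K27ac. The lists held 5721 to 102009 peaks and no read totals, so sequencing depth is unknown. The shortest list was TFE3 replicate 1, which had 4 peaks of at least 5 kb, and the other 13 lists had 277 to 7491.

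Acetylation of lysine 27 of histone H3 marks active promoters and enhancers, and it is read by bromodomain proteins. Most H3K27ac peaks are short, while some genes lie under long stretches that can hold a promoter, several enhancers and the gaps between them. Long stretches of this kind are known from genes of cell identity and from genes with strong, sustained transcription. TAZ and YAP are coactivators that bind DNA through TEAD factors, often beside AP-1 sites at enhancers.

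Gene symbols were available for 148 domains (29.7%), with 141 distinct symbols. They came from the study's own GRCh37/hg19 annotation of factor peaks, where an interval lying inside a domain was paired with its nearest gene. That annotation lists only genes that were both bound by a factor and differentially expressed in the study. A domain with no symbol may therefore lie over a gene as well, a symbol need not be the gene that the domain acts on, and no theme was read from the names. Of the 141 symbols, 102 had a promoter in the RefSeq table of build GRCh38.p14. Promoters of the 4 broadest domains with a symbol and a promoter are shown to give the sequence at these gene starts, as the 250 bases before the start on the gene's strand. Capitals mark the TEAD motif GGAATG or its reverse complement CATTCC and the AP-1 motif TGANTCA, both searched on both strands. Whether each window lies under its domain was not checked, since the peak lists use another build.
TGFBI: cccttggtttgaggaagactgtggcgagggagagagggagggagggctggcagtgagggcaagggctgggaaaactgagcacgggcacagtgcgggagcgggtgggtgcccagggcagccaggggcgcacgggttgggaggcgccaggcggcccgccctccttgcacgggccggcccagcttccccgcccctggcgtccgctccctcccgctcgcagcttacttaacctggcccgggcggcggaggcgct
MICAL2: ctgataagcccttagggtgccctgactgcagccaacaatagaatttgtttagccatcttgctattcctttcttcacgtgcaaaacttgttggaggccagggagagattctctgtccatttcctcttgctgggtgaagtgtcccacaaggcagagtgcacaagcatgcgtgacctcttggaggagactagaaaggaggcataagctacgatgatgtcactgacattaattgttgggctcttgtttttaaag
RHOBTB3: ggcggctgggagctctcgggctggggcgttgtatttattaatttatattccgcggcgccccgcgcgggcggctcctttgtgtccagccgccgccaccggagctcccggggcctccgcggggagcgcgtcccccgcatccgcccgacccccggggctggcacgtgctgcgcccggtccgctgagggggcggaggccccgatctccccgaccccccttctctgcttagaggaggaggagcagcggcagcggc
ACTN4: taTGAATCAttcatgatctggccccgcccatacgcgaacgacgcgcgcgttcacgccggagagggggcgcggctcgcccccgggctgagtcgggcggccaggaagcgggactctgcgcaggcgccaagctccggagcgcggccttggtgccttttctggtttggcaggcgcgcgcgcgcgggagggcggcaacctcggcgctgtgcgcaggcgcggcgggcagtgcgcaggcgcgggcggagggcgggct
Of these 4 windows, the ACTN4 promoter held 1 match to TGANTCA, and no match to GGAATG was found in any. Bases G and C made up 72.8% of the window of TGFBI, 73.6% of that of RHOBTB3, 74.4% of that of ACTN4 and 46.8% of that of MICAL2. Over the 102 promoters, 9.80% held GGAATG against 11.9% of all 35093 promoters of the table, and 6.86% held TGANTCA against 6.57%. A match is a description of the letters and not a bound site.

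The merged length of a domain ran from 7.39 to 132 kb with a median of 20.8 kb. Each list gave 1 breadth per domain, the length of its longest single peak there, and the median over lists of this breadth was 7.71 kb over the domains (5.29 to 33.8 kb, quartiles 6.64 and 9.91 kb). At the edge of the rule, the tenth longest list value was 5004, 5007 and 5012 bp in the 3 domains just inside and 4993, 4978 and 4975 bp in the 3 regions just outside. Of the former, chr2:75814593-75836318 had no symbol and chr5:169393742-169409247 lay at INSYN2B, and of the latter, chr5:52092435-52100598 lay at PELO. A peak of at least 5 kb was found in exactly 10 lists for 140 domains, in 11 for 132, in 12 for 130, in 13 for 92 and in all 14 for 4. In comparison, 155 merged regions reached 9 lists, and 8150 regions (5.87%) had a peak of at least 5 kb in 1 list or more. A peak of any length was present in all 14 lists at 441 domains, where the share of all merged regions with such a peak was 2.93%. The other 57 domains lacked a peak only in TFE3 replicate 1. The number of domains moved by more than 1.5 times when peaks within 1000 bp were stitched (1005 domains), when the length threshold was 4 kb (863) or 6 kb (277), and when 8 lists (829) or 12 lists (226) were required.

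The broadest domain, chr5:135321701-135403480 (GRCh37/hg19, as all coordinates here), lay at TGFBI, which encodes a secreted matrix protein induced by TGF-β. Its longest peak was 33.9 and 33.6 kb in the empty-vector libraries, 80.9 and 81.8 kb under TAZ4SA, 12.1 and 34.1 kb under TAZ-CAMTA1 and 35.9 and 15.05 kb under CAMTA1. It was 12.3 and 18.8 kb under YAP5SA, 34.7 and 32.5 kb under YAP-TFE3 and 0.703 and 35.3 kb under TFE3. Both TAZ4SA libraries thus lay above all others and both YAP5SA libraries lay below the empty vector, while the pairs of TAZ-CAMTA1, CAMTA1, YAP-TFE3 and TFE3 spanned it. The medians over all domains also had TAZ4SA highest and YAP5SA below the empty vector. The fold enrichment at its strongest summit, as the peak caller gave it, was 26.8 and 31.9 in the empty-vector libraries, 49.2 and 52.9 under TAZ4SA and 6.08 to 27.7 in the other 10. In 81.8 kb of merged length the lists held a median of 9.5 separate peaks.

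The domain at RHOBTB3 was 1 of the 4 domains with a peak of at least 5 kb in every list. At chr5:95043928-95085201 its longest peak was 25.4 and 25.6 kb in the empty-vector libraries, 33.0 and 31.9 kb under TAZ4SA, 10.6 and 20.2 kb under TAZ-CAMTA1 and 26.2 and 20.4 kb under CAMTA1. It was 24.9 and 18.8 kb under YAP5SA, 27.1 and 21.96 kb under YAP-TFE3 and 5.56 and 28.9 kb under TFE3. The strongest summit lay within 500 bp of the same place in 14 of 14 lists. A second such domain, chr20:45926094-46004058 at ZMYND8, a reader of acetylated histones, had peaks of 73.5 and 68.0 kb under TAZ4SA and of 9.81 to 29.6 kb in the other 12 libraries. Its summit fold had a median of 29.0 and a median percentile of 99.8 among all peaks of a list, and it was the domain with a symbol that ranked among the 5 highest by this percentile. The other two, chr22:46443810-46516846 (6.74 to 50.1 kb) and chr20:52345380-52396795 (5.10 to 25.3 kb), had no symbol.

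ACTN4, an actin-crosslinking α-actinin, lay in a compact domain, chr19:39134064-39163998, that most lists called as nearly 1 block. Its longest peak was 25.6 and 23.4 kb in the empty-vector libraries, 28.8 and 25.6 kb under TAZ4SA, 25.4 and 24.3 kb under YAP5SA and 25.6 and 23.4 kb under YAP-TFE3, of 29.9 kb in all. It was 5.90 and 24.2 kb under TAZ-CAMTA1, 25.3 and 7.68 kb under CAMTA1 and 0.987 and 18.2 kb under TFE3. The 3 lowest values came from the 3 libraries in which the domains were shortest as a whole. Of the other 11, TFE3 replicate 2 was lowest (18.2 kb), and the rest lay at 23.4 to 28.8 kb. The adjoining domain, chr19:39164444-39206232, had no symbol and a median longest peak of 19.1 kb.

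MICAL2, an enzyme that oxidizes actin, had domains at chr11:12152869-12265794 (median longest peak 27.9 kb) and chr11:12084334-12117490 (10.04 kb). The longer one was 45.2 and 54.8 kb under TAZ4SA, 27.3 and 33.7 kb in the empty-vector libraries, 6.89 and 9.25 kb under YAP5SA and 0.625 to 30.04 kb in the other 8. It was broken into a median of 18.5 pieces, and its strongest summit was shared by 5 lists. COL6A3, a chain of collagen VI, had 19.6 and 21.3 kb in the empty-vector libraries, 41.5 and 34.1 kb under TAZ4SA, 4.01 and 12.9 kb under TAZ-CAMTA1 and 7.61 and 7.45 kb under YAP5SA at chr2:238184018-238238099, and no peak in TFE3 replicate 1. ETS1, a transcription factor of the ETS family, had 65.7 and 72.4 kb under TAZ4SA and 2.42 to 24.6 kb in the other 12 libraries at chr11:128316634-128397969. In each of these 3 domains both TAZ4SA libraries were above all others, and for COL6A3 and the longer MICAL2 domain both YAP5SA libraries were below both empty-vector libraries. The medians over all domains had the same order, with 16.7 and 13.8 kb under TAZ4SA and 9.94 kb in the next library. They were 6.43 and 6.47 kb under YAP5SA and 7.75 and 8.69 kb in the empty-vector libraries. After centring each library, TAZ4SA was above at 7.71% of the domains and 7.61% of the regions with a peak in all 14 lists.

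The next domains with a symbol were narrower. BCL9L, a coactivator of β-catenin, had a median longest peak of 17.9 kb at chr11:118777686-118801363, with 7.11 to 23.7 kb in all lists but TFE3 replicate 1 (3.57 kb). TTC7A, a scaffold of a lipid kinase complex, reached 17.7 kb at chr2:47245126-47318900. CDH13, a cadherin held in the membrane by a lipid anchor, reached 16.7 kb at chr16:82658930-82698271, and its strongest summit was shared by 14 of 14 lists. ANXA2, a phospholipid-binding annexin, reached 16.2 kb at chr15:60660056-60707988, where YAP5SA replicate 1 (35.4 kb) lay near the TAZ4SA libraries (35.9 and 37.5 kb) and YAP5SA replicate 2 did not (17.2 kb). LINC01119, a long noncoding RNA, reached 16.1 kb at chr2:47062266-47113012. Without a symbol, the broadest were chr11:121954658-122087116, with a median longest peak of 28.3 kb in 132 kb of merged length, chr22:46443810-46516846, with 27.1 kb, chr11:11979560-12030713, with 21.3 kb, and chr3:16089545-16135517, with 19.9 kb. The last had 0.856 kb in TFE3 replicate 1 and 31.5 kb in TAZ4SA replicate 1, its shortest and longest list.

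**Figure D1:**
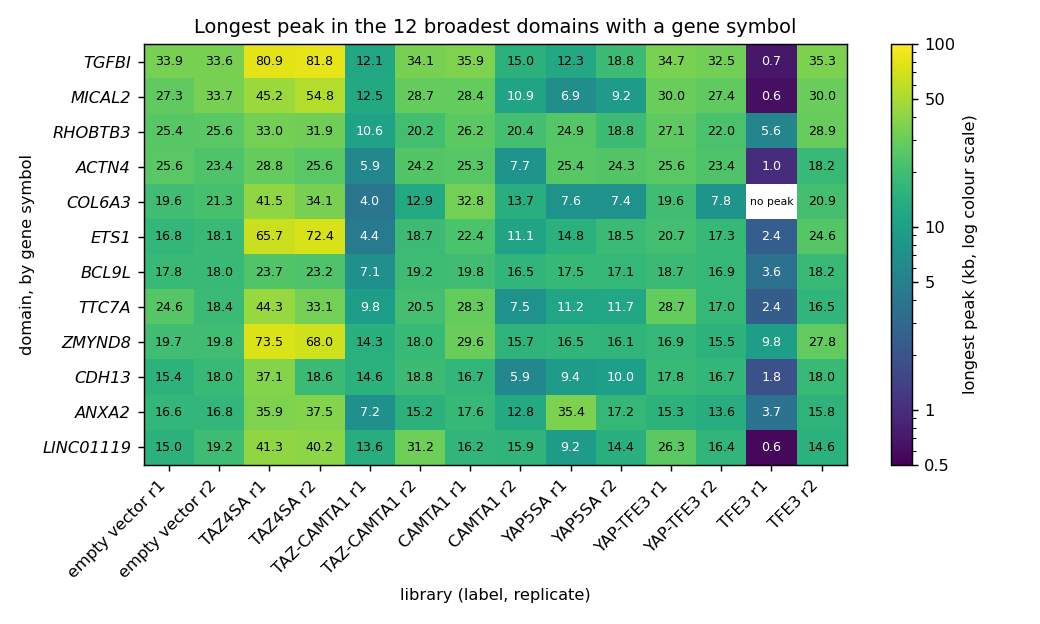
Length in kb of the longest peak (number and log colour scale) at the 12 domains with a gene symbol that had the highest median, in each of the 14 libraries (columns, label and replicate; r1 and r2 are the replicates). TAZ4SA columns are brightest in most rows, TFE3 replicate 1 is darkest, and the ACTN4 row is near 25 kb in most libraries.

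Further domains with familiar symbols were chosen after their values were seen and are given as examples by role. Among genes of the cytoskeleton and adhesion, the median longest peak was 16.02 kb at BCAR1, a scaffold of focal adhesions, 13.2 kb at TPM1, a tropomyosin, 10.6 and 9.46 kb at the domains of MYH9, a nonmuscle myosin heavy chain, and 8.66 kb at CAV1, the main coat protein of caveolae. For CD44, the hyaluronan receptor, the domains had 10.6 and 5.93 kb. Among genes of the matrix and TGF-β signalling, SMAD3, a signal transducer of TGF-β, had domains of 11.1 and 9.12 kb. TIMP2, an inhibitor of matrix proteases, had 8.46 kb, and COL1A1, a chain of collagen I, had 8.03 kb.

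Transcription factors were found with a range of breadths. The domain of FOSL1, an AP-1 subunit, had a median longest peak of 13.1 kb (0.938 to 37.3 kb), that of FOSL2 had 8.84 kb (1.25 to 30.6 kb), and that of JUN, their partner, had 7.15 kb (0.430 to 19.4 kb). EPAS1, a hypoxia-inducible factor, had 12.7 kb, HMGA2, an architectural chromatin protein, had 9.56 kb, and NR2F2, an orphan nuclear receptor, had 8.47 kb. Of genes tied to the Hippo pathway, CCN1, a known target of YAP and TAZ, shared with DDAH1 a domain of 12.2 kb at chr1:86030084-86053180 whose summit fold percentile was 99.6. NF2, an upstream activator of the Hippo kinases, had 8.12 kb, AJUBA, a LIM protein that binds LATS kinases, had 7.98 kb, and TEAD1, a DNA-binding partner of YAP and TAZ, had 6.90 kb. Among receptors, AXL had 9.86 kb, FZD2, a Wnt receptor, had 9.61 kb, EGFR had 9.09 kb and EPHA2 had 7.84 kb. CCND1, which encodes cyclin D1, lay close to the lower end of the domains at 5.47 kb.

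Most domains were not a single unbroken block in each list. The median over lists of the number of separate peaks within the domain was 3.5 over the domains, 320 domains (64.3%) had at least 3 pieces by this median, and 43 (8.63%) had 1. Per library the mean number of pieces was 2.27 to 5.62 in the domains and 1.17 to 2.14 in the 3620 other regions with a peak in all 14 lists, which serve as the comparison set. The comparison set had a median merged length of 6104.5 bp, and a longer region has room for more pieces. Domains with the steadiest breadth were chr18:3601071-3609754, with an SD of log2 breadth over the lists of 0.31 and 3.79 to 8.66 kb, chr14:55113670-55123768 at SAMD4A (0.34) and chr17:79475695-79485275 (0.36). The most variable with a peak in every list was chr20:33887096-33918581, with an SD of 1.87 and 0.278 to 29.1 kb, followed by chrX:103553998-103583234 (1.76) and a domain on chromosome 8 (1.75). The lowest value of the first (0.278 kb) and of the last (0.311 kb) was in TFE3 replicate 1, the shortest list. The median SD was 1.01, where 1 on this scale is a doubling of length. TFE3 replicate 1 was included in these SDs wherever it had a peak.

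The place of the strongest summit, the one with the highest fold in a list, was less constant than in the comparison set. It lay within 500 bp of a common place in at least 10 lists at 244 domains (49.0%), and at 3176 comparison regions (87.7%). It did so in all lists with a peak at 64 domains (12.9%) and in fewer than 7 lists at 85 (17.1%). At COL6A3, 1 of the 10 broadest domains, it did so in 3 lists. In longer regions there are more places for a summit, and the difference between both sets was not tested.

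The summits of the domains were high as well as broad. The median over lists of the summit fold was 14.3 over the domains (6.05 to 33.7), and the median percentile of that fold among all peaks of a list was 95.5 (71.2 to 99.9). Per library the median percentile was 74.3 to 98.0 in the domains and 57.2 to 96.9 in the comparison set. The domains were higher in each of the 14 libraries, with the smallest gap in TAZ4SA replicate 1 (97.8 against 96.9) and the widest in TFE3 replicate 1 (74.3 against 57.2). Each region gave the highest percentile of its peaks, and the domains held more pieces than the comparison regions. More pieces leave more room for a high value, and the difference between both sets was not tested. Breadth and fold were not the same order. The 5 domains with the highest median percentile included chr17:40663310-40681579, with a median fold of 33.7 and a longest peak of 3.35 to 13.7 kb, and chr2:208006307-208033599, with a fold of 30.3 and 2.15 to 11.3 kb. The others were chr9:131894196-131917647, chr11:58339625-58349758 and the ZMYND8 domain. Within a library, the Spearman correlation of breadth and fold over the domains was 0.168 to 0.654. Peak length and summit height come from the same reads, so this is a description.

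**Figure D2:**
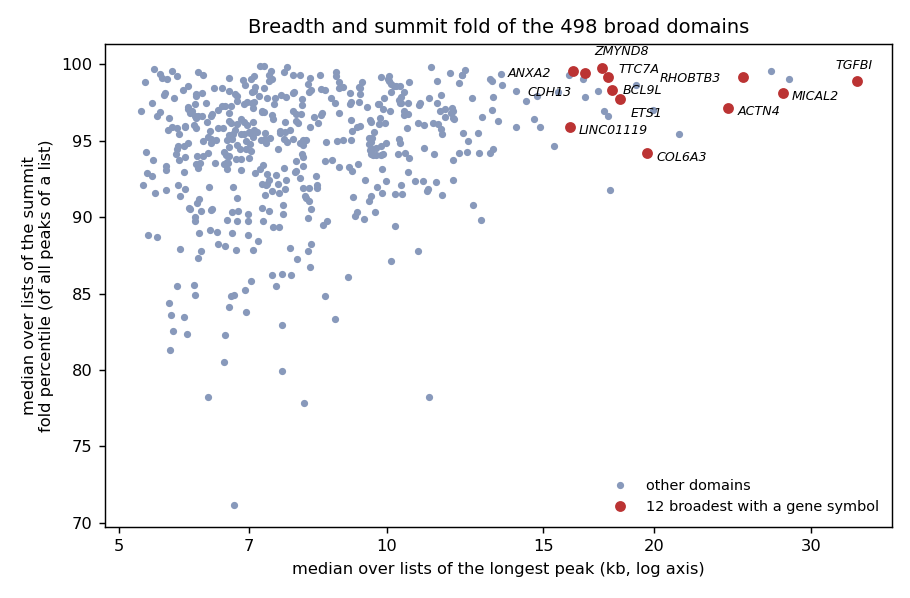
Each point is 1 of the 498 domains. The x axis gives the median over lists of the longest peak in kb (log axis) and the y axis the median over lists of the percentile of the summit fold among all peaks of the list. The 12 broadest domains with a symbol (red, named) all lie above a percentile of 94, and domains of 5 to 10 kb span 71.2 to 99.9.

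Some domains lay side by side. When domains with gaps of at most 100 kb were joined, 164 domains (32.9%) fell into 73 clusters, 61 of them with 2 domains and 12 with 3 or more, and 334 domains stood alone. The largest clusters were chr11:95828456-96076949 with 5 domains and no symbol, chr7:92249740-92467304 with 5 domains and the symbol FAM133B, and chr5:14028729-14275795 with 4 domains and the symbols DNAH5 and TRIO. Another cluster, chr12:46756442-46958702, also held 4 domains and had no symbol. The 2 MICAL2 domains and chr11:11979560-12030713 formed a cluster of 3 over 286 kb. Domains that merge only partly between lists can count as neighbours, so clusters depend on where the lists broke the signal. Chromosome 11 held 52 domains, or 10.4% of them against 5.36% of all merged regions. Chromosomes 7 and 12 held 38 each (7.63% against 5.09% and 5.12%), whereas chromosome 3 held 17 (3.41% against 6.11%), chromosome 4 held 6 (1.20% against 3.46%) and chromosome 22 held 5 (1.004% against 2.57%). Copy number was not analysed here.

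The breadth of the domains differed strongly between libraries. The median longest peak over the domains was 7.75 and 8.69 kb in the empty-vector libraries, 16.7 and 13.8 kb under TAZ4SA, 6.43 and 6.47 kb under YAP5SA and 9.94 and 7.20 kb under YAP-TFE3. It was 4.35 and 9.24 kb under TAZ-CAMTA1, 9.17 and 5.25 kb under CAMTA1 and 1.099 and 7.91 kb under TFE3. TAZ4SA libraries were the longest and YAP5SA libraries lay below the empty vector. The gap within a label was widest for TFE3, TAZ-CAMTA1 and CAMTA1. In these labels the library with the shorter domains also had the shorter peak list, at 5721 against 47308 peaks for TFE3, 21748 against 48372 for TAZ-CAMTA1 and 31280 against 47974 for CAMTA1. The TAZ4SA lists were the longest of all (102009 and 98992 peaks, the next 57505), and the YAP5SA lists (31086 and 30236) were shorter than those of the empty vector (42841 and 49855). The means were 8.22 ± 0.661 kb for the empty vector, 15.3 ± 2.06 kb for TAZ4SA, 6.80 ± 3.45 kb for TAZ-CAMTA1, 7.21 ± 2.77 kb for CAMTA1, 6.45 ± 0.0304 kb for YAP5SA, 8.57 ± 1.94 kb for YAP-TFE3 and 4.50 ± 4.81 kb for TFE3 (SD, n = 2 each). With 2 libraries a label, no single pair of labels was tested. Peak lists of the comparison set varied too, from 0.502 to 5.15 kb, and the part of list length in the differences between libraries was not tested.

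**Figure D3:**
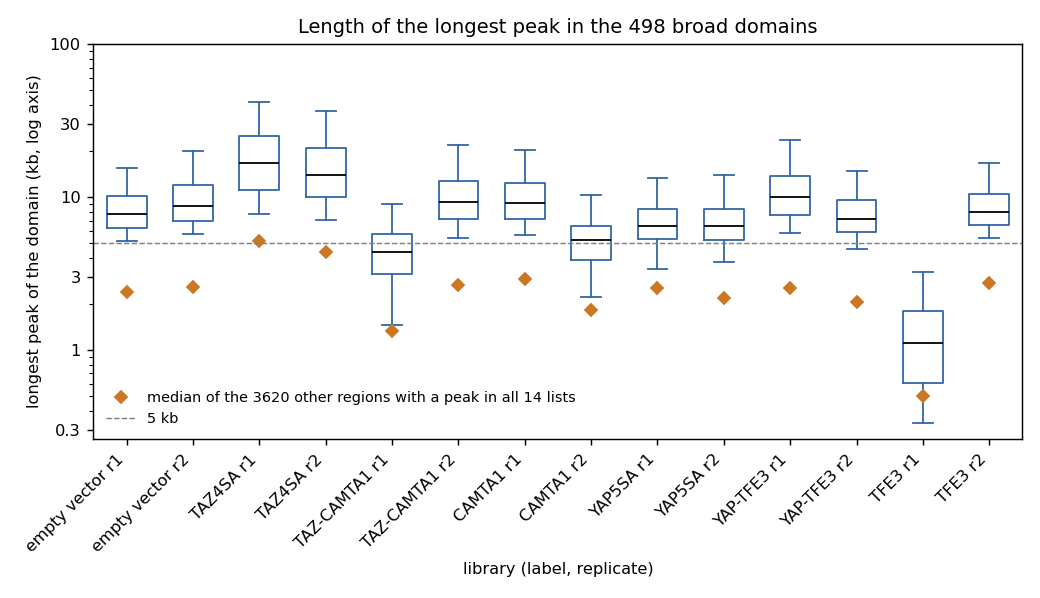
Length in kb (log axis) of the longest peak in the domains for each library (x axis, label and replicate). Boxes give the quartiles and the median over the domains with a peak in that library, whiskers the 5th and 95th percentile, orange diamonds the median of the comparison set, and the dashed line 5 kb. TAZ4SA libraries lie highest (16.7 and 13.8 kb) and TFE3 replicate 1 lies at 1.099 kb.

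Of the 498 domains, 486 and 494 had a peak of at least 5 kb in the empty-vector libraries, 498 and 497 under TAZ4SA, 187 and 483 under TAZ-CAMTA1 and 496 and 278 under CAMTA1. The numbers were 400 and 405 under YAP5SA, 494 and 452 under YAP-TFE3 and 4 and 490 under TFE3. These counts are partly fixed by the rule. Therefore the domains were also chosen on 13 lists, with 10 lists still required, and looked up in the list left out. The left-out list had a peak of at least 5 kb in 96.7 and 98.9% of such domains for the empty vector, in 100 and 99.7% for TAZ4SA, in 34.5 and 95.9% for TAZ-CAMTA1 and in 99.4 and 52.1% for CAMTA1. The shares were 77.1 and 77.9% for YAP5SA, 98.9 and 88.3% for YAP-TFE3 and 0.803 and 97.8% for TFE3. Other regions with a peak in at least 10 of the 13 lists had such a peak in 38.2 and 27.3% of cases for TAZ4SA and in 0 to 11.99% for the rest. In every library the share at the domains was above that at the other regions, and the 2 sets of regions also differed in length by construction.

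**Figure D4:**
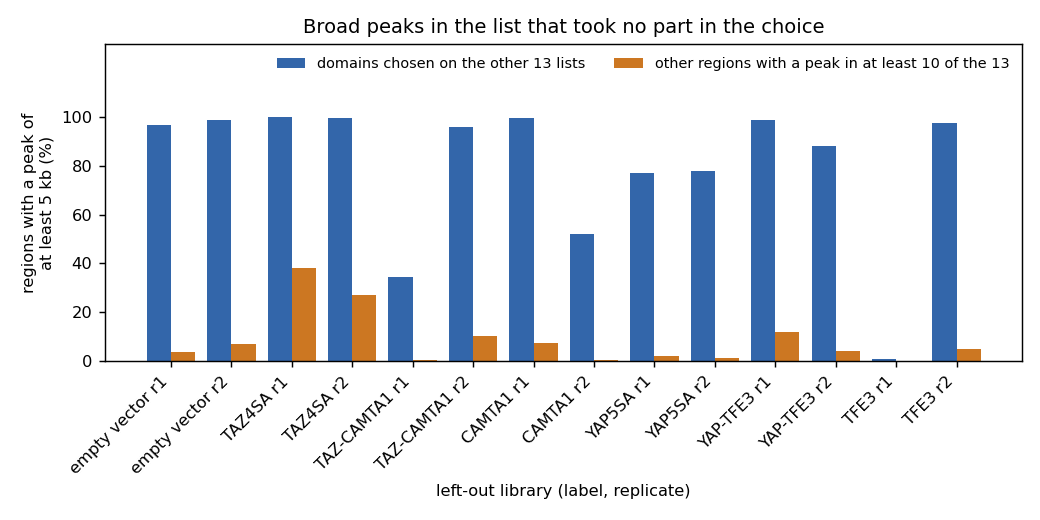
Percentage of regions with a peak of at least 5 kb (y axis) in the library left out of the choice (x axis). Blue bars are domains chosen on the other 13 lists and orange bars other regions with a peak in at least 10 of these 13. Blue is near 100% for 8 libraries and 0.803% for TFE3 replicate 1.

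Domains that lacked a peak of at least 5 kb in both libraries of just 1 label were counted with TFE3 replicate 1 set aside, a choice made after its length had been seen, since its 4 domains with such a peak left almost none to count. As a description of values the rule used, 4 domains (0.803%) lacked such a peak only under TAZ-CAMTA1 and 2 (0.402%) only under YAP5SA, and no domain did so for the other labels. Of the 8150 regions with such a peak in 1 list or more, these were 0.0491 and 0.0245%, since the rule takes in every region of this kind. The broadest of the former was chr9:33147190-33170552, with 3.08 and 4.38 kb under TAZ-CAMTA1, 11.9 and 11.99 kb in the empty-vector libraries and 6.08 to 22.7 kb in the other 9. The broadest of the latter was chr20:33887096-33918581, with 0.947 and 4.27 kb under YAP5SA, 9.63 and 9.54 kb in the empty-vector libraries and 5.91 to 29.1 kb in the other 9. Both libraries of YAP5SA lacked such a peak at 36 domains (7.23%, against 90.4% of the 8150 regions), those of TAZ-CAMTA1 at 15 (3.01% against 74.6%) and those of TFE3 at 8 (1.61% against 85.8%). Those of CAMTA1 did at 2 (0.402% against 81.1%), those of YAP-TFE3 at 1 (0.201% against 70.3%), and those of TAZ4SA and the empty vector at none (7.71 and 81.0% of the regions).

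Whether libraries of the same label resembled each other at the domains was tested over the 441 domains with a peak in every list, by an exact one-sided permutation test in which the 14 libraries were paired up in each of the 135135 possible manners. Benjamini-Hochberg adjustment covered 3 measures, and for breadth, which the rule used, values are given with no p. The rank of the domains by summit fold had a Spearman correlation of 0.599 ± 0.0996 (SD, n = 7) in pairs of the same label and of 0.433 ± 0.121 (SD, n = 84) in pairs of different labels, a difference of 0.165 (p = 8.88e-05, adjusted p = 0.000266, exact permutation). The rank by breadth had 0.577 ± 0.206 (SD, n = 7) and 0.421 ± 0.179 (SD, n = 84), a difference of 0.157. Strongest summits were a median of 238 bp apart in pairs of the same label and 367 bp in pairs of different labels, as means over pairs, which were thus 129 bp closer within labels (p = 0.00587, adjusted p = 0.00587, exact permutation). Summit fold rank and summit position were therefore more alike within labels than between them.

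The likeness was uneven over labels. For breadth it was 0.875 for TAZ4SA, 0.711 for the empty vector, 0.675 and 0.588 for the labels YAP-TFE3 and YAP5SA, and 0.511, 0.448 and 0.234 for TAZ-CAMTA1, CAMTA1 and TFE3, so that only the TAZ4SA pair lay outside the range of pairs of different labels (0.0233 to 0.726). For summit fold the TAZ4SA pair was again highest at 0.750 and the TAZ-CAMTA1 pair lowest at 0.421. Of the 14 libraries, 7 had their own partner as the most similar library by breadth, 9 by summit fold and 9 by summit position, the last with YAP-TFE3 replicate 1 included, which was equally close to CAMTA1 replicate 1 (149 bp). The call for summit position was lost without either TAZ4SA library. The difference in summit distance was 82.5 bp without TAZ4SA replicate 1 (adjusted p = 0.0626, exact permutation) and 74.6 bp without TAZ4SA replicate 2 (adjusted p = 0.0881, exact permutation). That in breadth correlation was 0.0854 and 0.0881 without these libraries, 0.0575 with the summed length of all peaks in place of the longest, and 0.0946 with the 5721 strongest peaks of each list. The difference in summit fold rank was 0.126 to 0.192 with each library left out in turn, and its adjusted p was at most 0.00282 (exact permutation).

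**Figure D5:**
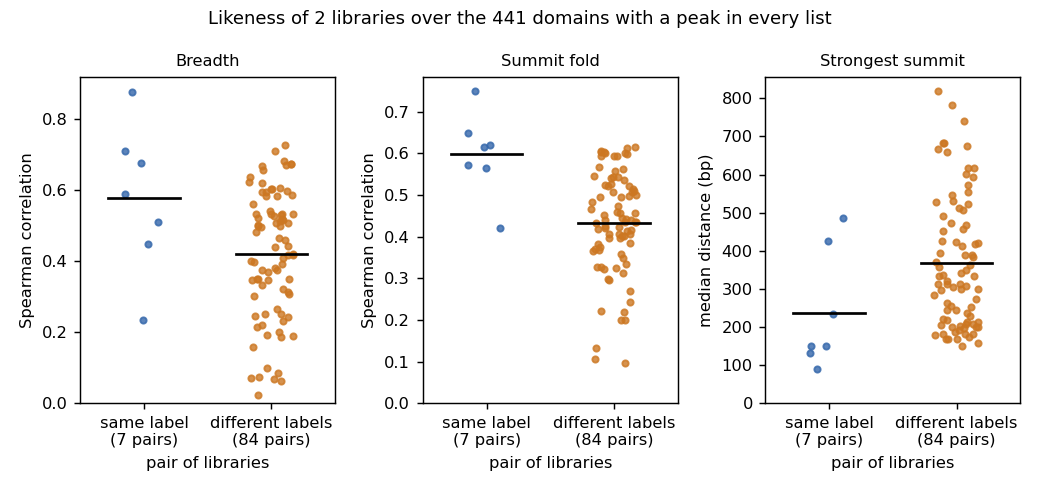
Each point is a pair of libraries, of the same label (blue, 7 pairs) or of different labels (orange, 84 pairs), and black lines are means. The left and middle panels give the Spearman correlation over 441 domains of breadth (0.577 and 0.421 on average) and of summit fold, and the right panel the median distance in bp between strongest summits (238 and 367 bp).

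How much of the breadth belonged to the domain and how much to the library was described by splitting the variance of log2 breadth. Over the 441 domains and 14 lists, 15.5% lay between domains, 65.8% between libraries and 18.8% in the remainder. Without TFE3 replicate 1, over the 498 domains, the parts were 29.3, 42.4 and 28.3%. The rule used breadth and thereby narrowed the spread between domains, so these parts hold for the chosen regions and their order is not a result.

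Sets of labels were compared with 1 value per library, the median over the domains, and no p is given for such a value. The fusions had a median longest peak of 7682 ± 2504 bp (SD, n = 4), the active forms 10855 ± 5228 bp (SD, n = 4), the full-length partners 5858 ± 3569 bp (SD, n = 4) and the empty vector 8218 ± 661 bp (SD, n = 2). The ranges overlapped, at 4354.5 to 9937.5 bp, 6425.5 to 16723.5 bp, 1099 to 9173 bp and 7750.5 to 8685 bp. The mean difference of fusions from active forms was -0.43 on the log2 scale. It was -0.18 without TAZ4SA replicate 1, -0.28 without TAZ4SA replicate 2 and -0.21 without TAZ-CAMTA1 replicate 1. That of fusions from full-length partners was 0.70, or 0.01 without TFE3 replicate 1. All constructs together differed from the empty vector by -0.25, or by -0.01 without TFE3 replicate 1, -0.39 without TAZ4SA replicate 1 and -0.16 without empty-vector replicate 2. The median fold percentile was 95.8 ± 2.29 in the fusions, 95.1 ± 3.29 in the active forms, 89.7 ± 10.4 in the full-length partners (SD, n = 4 each) and 96.2 ± 0.575 in the empty vector (SD, n = 2). The ranges of the sets overlapped in this measure too. Fusions differed from active forms by 0.69 points, with -0.27 to 1.52 when each library was left out, and from full-length partners by 6.07 points, or 0.919 without TFE3 replicate 1. All constructs differed from the empty vector by -2.69 points, or by -0.938 without TFE3 replicate 1 and -1.67 without empty-vector replicate 2. With the construct in the peak names in place of the label, the difference of fusions from full-length partners turned to -0.69 for breadth and -4.54 points for the fold percentile, and the difference of fusions from active forms in fold percentile turned from 0.69 to -6.07 points. The difference of all constructs from the empty vector was then -1.29 for breadth and -4.65 points for the fold percentile. With the 5721 strongest peaks of each list, which left 350 domains, the fold percentile of fusions differed by 5.42 points from that of active forms and by 4.10 from that of full-length partners, and that of all constructs by -0.75 points from that of the empty vector. The fusion libraries then lay at 78.2 to 82.3 and no longer overlapped with the active forms (68.6 to 77.0) or the full-length partners (72.8 to 78.0), while the empty-vector libraries (75.9 and 78.5) reached into their range. The margin over the full-length partners was narrow (78.15 against 78.00). By the peak names, the fusions are the libraries labelled CAMTA1 and TFE3. The active forms are then those labelled TAZ-CAMTA1 and YAP-TFE3, so the order of fusions and active forms would be reversed.

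Single domains that stood apart in a label were counted, a measure chosen after the values were seen and not tested. The level of each library was removed for breadth only. For breadth, the log2 length of the longest peak was centred on the library's median over the 4061 regions with a peak in all 14 lists, which include the 441 domains. A domain stood apart where both libraries of a label lay above, or below, all other 12. Under TAZ4SA, 34 domains were above (7.71%, against 7.61% of the 4061 regions) and 39 below (8.84% against 8.52%), so the domains were near the background in both directions. Under TAZ-CAMTA1, 17 were above (3.85% against 1.58%) and 8 below (1.81% against 2.07%). Under YAP-TFE3, 19 were above (4.31% against 2.73%) and 2 below (0.454% against 1.26%). Under YAP5SA, 2 were above (0.454% against 1.28%) and 10 below (2.27% against 1.87%), and under TFE3, 2 were above (0.454% against 1.92%) and 12 below (2.72% against 1.38%). The empty vector had 6 above (1.36% against 0.64%) and none below (0.566% of the regions), and CAMTA1 had none above (0.492% of the regions) and 2 below (0.454% against 0.813%).

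Domains with a wide gap in this count show what it means in length. At chr2:201261304-201275728 the longest peak was 6.33 and 14.1 kb under TAZ-CAMTA1 and 0.710 to 10.6 kb in the other 12 libraries, and after centring the TAZ-CAMTA1 libraries were 2.14 and 2.28 and the highest of the others 1.63. At FZD2, chr17:42611099-42638371, it was 8.44 and 15.96 kb under TAZ-CAMTA1, 16.5 and 11.9 kb under TAZ4SA, 11.2 and 10.1 kb under YAP-TFE3 and 9.89 and 11.1 kb in the empty-vector libraries. It was 9.33 and 2.74 kb under CAMTA1, 2.58 and 5.96 kb under YAP5SA and 0.346 and 4.35 kb under TFE3. The FZD2 lengths under TAZ-CAMTA1 overlapped with those of other labels before centring, and after it both TAZ-CAMTA1 libraries (2.55 and 2.46) lay above the other 12, which still overlapped among themselves. At NR2F2, chr15:96805535-96823696, it was 17.6 and 17.9 kb under YAP-TFE3, 10.2 and 7.59 kb in the empty-vector libraries, 17.2 and 11.9 kb under TAZ4SA and 0.329 to 15.2 kb in the other 8. Both YAP-TFE3 libraries were the longest of all 14 there also without centring.

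A domain could also be short in 1 label after centring. At UPP1, the gene of uridine phosphorylase, chr7:48121293-48137947, the longest peak was 2.63 and 2.84 kb under YAP5SA, 8.65 and 7.99 kb in the empty-vector libraries and 1.23 to 12.6 kb in the other 10. TFE3 replicate 1 (1.23 kb) was the shortest before centring. After it the YAP5SA libraries (-0.035 and 0.26) lay below the other 12 (0.70 to 2.12).

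The same count was made with the fold percentile, which was not centred. It is a rank within a list, and the lists held 5721 to 102009 peaks. The level of each library thus stayed in this count. The median percentile in the comparison set was 96.9 and 96.8 under TAZ4SA, 90.5 and 90.2 under YAP5SA and 57.2 in TFE3 replicate 1. Both TAZ4SA libraries were above all others at 86 domains (19.5%, against 27.7% of the 4061 regions) and below at 1 (0.227% against 0.0246%), which was the SAMD4A domain. Both YAP-TFE3 libraries were above at 29 (6.58% against 2.63%) and below at none (0.123% of the regions). Under TFE3, none was above and 15 were below (3.40% against 1.38%), among them AXL, a receptor tyrosine kinase, where the percentile was 39.8 and 73.7 under TFE3, 97.8 and 97.4 in the empty-vector libraries and 86.2 to 98.8 in the other 10. The 39.8 is from TFE3 replicate 1, whose median over all domains was 74.3, against 91.6 to 98.0 in the other 13 libraries. Under YAP5SA, 1 was above (0.227% against 0.739%) and 7 were below (1.59% against 0.566%), among them BCL9L, with 87.5 and 87.8 under YAP5SA, 98.8 and 99.2 in the empty-vector libraries and 91.0 to 99.9 in the other 10. The BCL9L peak was nevertheless 17.5 and 17.1 kb long under YAP5SA, close to the 17.8 and 18.0 kb of the empty vector.

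Under TAZ-CAMTA1, 4 domains were above by fold percentile (0.907% against 0.271%) and 5 below (1.13% against 1.58%). Among the latter was the shorter CD44 domain, chr11:35117343-35126322, with 79.3 and 75.5 under TAZ-CAMTA1, 97.4 and 98.5 in the empty-vector libraries and 85.8 to 98.2 in the other 10. Among the former was ARHGAP29, at chr1:94783538-94796499, with 99.2 and 98.9 under TAZ-CAMTA1, 97.3 and 97.5 in the empty-vector libraries, 73.4 and 73.6 under YAP5SA and 38.9 to 98.7 in the other 8. The empty vector had 3 above (0.680% against 0.689%) and none below (0.0739% of the regions), and CAMTA1 had none above (0.468% of the regions) and 2 below (0.454% against 0.172%). At UBE2H, which encodes a ubiquitin-conjugating enzyme, chr7:129595180-129615883, the percentile was 99.55 and 99.57 under YAP-TFE3 and 85.6 to 97.3 in the other 12, the widest gap with a symbol under that label. The groups do not overlap at these domains by the way the domains were picked, and the differences were not tested.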

How the data were processed

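H3K27ac peak lists of 14 libraries (7 labels, 2 libraries each) were analysed, and the 14 input libraries were not analysed here. As the methods of the study describe, the authors aligned trimmed reads by BWA-MEM (GRCh37/hg19), discarded reads that mapped to several places as well as greylisted regions, and ran MACS2 in paired-end mode. The methods state pooling of replicates and a q limit of 0.1, whereas each deposited list belongs to 1 library and the lowest −log10 q was 1.30, a q of 0.05. Each line of the deposited lists gives the interval of a peak and its summit, an integer score, −log10 of the p-value and of the q-value, and the fold, a ratio of the summit to local background, as the authors' peak caller wrote them. The caller scales each library before calling, so fold and length depend on the reads of that library, which the lists do not give. Here fold was used as its percentile within a list.

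The domain rule and the lists of domains were chosen with earlier results of these data known. Named by rule were the 10 domains with the highest median longest peak, the 12 highest with a symbol, the 5 with the highest median fold percentile, 3 just inside and 3 outside the rule, the broadest domain missing in 1 label, the 3 largest clusters (gaps of at most 100 kb) and the 3 most and least variable in breadth; regions on chromosome 8 are given by value only. Some items are not reported here. Other domains were picked after their values were seen and are named so. Tests were exact permutations over libraries. Alternatives were a −log10 q of at least 5, the 5721 strongest peaks of each list, peaks within 1000 bp stitched, chromosomes 1 to 22 and X, overlapping peaks only, other length and list thresholds, summed peak length, −log10 p in place of fold, the construct in the peak names, replicate number as a block, and each library left out. Software was Python 3.11.15 with pandas 2.3.3, numpy 2.4.6, matplotlib 3.10.9 and scipy 1.17.1, and the code was tested on simulated data. Domain sequences were not analysed here, since the genome at hand was of another build.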

Additional observations from a re-analysis of the deposited data

Results flagged for a closer look

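The median fold percentile of the domains was 74.3 in TFE3 replicate 1 and 93.0 to 96.3 in the other 3 full-length libraries, a gap of 0.849 of the range of the 4, above the critical value of Dixon's test for 4 values. Chance flags about 1 in 20 groups, and 3 groups were screened here for this measure. The percentile is a rank within a list, and TFE3 replicate 1 held 5721 peaks against 31280 to 47974 in the other 3. With the 5721 strongest peaks of each list the 4 libraries lay at 72.8 to 78.0, and Dixon's test was not repeated there.

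With the full lists, the fusion differed from the active form in opposite directions in the TAZ and the YAP arm. The log2 median longest peak differed by -1.26 (TAZ-CAMTA1 minus TAZ4SA) and by 0.39 (YAP-TFE3 minus YAP5SA), a difference of -1.65 between the arms. The median fold percentile differed by -3.46 and 4.84 points, a difference of -8.29. Without TAZ-CAMTA1 replicate 1, left out after the values were seen, the TAZ arm differed by -0.72 and -1.50 points and the arms by -1.11 and -6.33. Without TAZ-CAMTA1 replicate 2 the fold percentile of the TAZ arm differed by -5.42 points, and the log2 length of the YAP arm differed by 0.16 and 0.62 without YAP-TFE3 replicates 1 and 2. In the full lists, both TAZ4SA libraries were above both TAZ-CAMTA1 libraries and both YAP5SA libraries were below both YAP-TFE3 libraries in each measure. The lists were also cut to their 5721 strongest peaks, which left 350 domains. The fold percentile was then 78.2 to 82.3 in the fusion libraries and 68.6 to 77.0 in the active forms. TAZ-CAMTA1 thus lay above TAZ4SA there, and both arms had the same direction in fold percentile. The difference between the arms was not computed for the cut lists. No p is given for such values over the domains, and length was used by the rule. With the construct in the peak names in place of the label, both arms turned in the full lists. They then differed by 0.13 (TAZ) and -1.52 (YAP) for log2 length and by 0.19 and -12.3 points for fold percentile.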

How the results depend on the processing

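Of the results that answer a comparison, 239 values kept their direction and their side of the threshold under the alternatives. For the number of domains this meant staying within 1.5 times. Another 5 moved, 5 reversed and 4, all without a TAZ4SA library, fell short of the threshold. These counts include breadth, which the rule used, so they describe the processing and are no support for a call on breadth. Of 408 values for the median longest peak of 17 named domains, 7 moved by more than the SD over the lists. By more than 1.5 times moved 17, of which 12 with summed peak length (up to 3.42 times) and 5 with peaks stitched (up to 2.65 times). The number of domains was 1005 with peaks within 1000 bp stitched, 863 at 4 kb, 277 at 6 kb, 829 with at least 8 lists and 226 with at least 12, and 360 to 498 with each library left out. With each library left out, the likeness within labels minus that between labels was 0.0854 to 0.224 for breadth, 0.126 to 0.192 for fold rank and 74.6 to 189.6 bp for summit distance, and the call for distance was lost without either TAZ4SA library. The breadth likeness was 0.0946 with the 5721 strongest peaks of each list and 0.0575 with summed peak length. With a library left out, the difference of fusions from active forms was -0.61 to -0.18 for breadth (log2) and -0.27 to 1.52 for fold percentile, turning sign without YAP5SA replicate 1 (-0.27) and without YAP-TFE3 replicate 1 (-0.16). That of fusions from full-length partners was 0.01 to 1.03 and 0.919 to 7.45, and that of constructs from the empty vector -0.39 to -0.01 and -2.56 to -0.938. With the construct in the peak names, fusions minus active forms was -0.70 for breadth and -6.07 for fold percentile, fusions minus full-length partners -0.69 and -4.54, and constructs minus empty vector -1.29 and -4.65. The fold percentile differences, in the same order, were 5.42, 4.10 and -0.75 with these 5721 peaks and 1.39, 9.83 and -4.06 at a −log10 q of at least 5; fusions minus active forms was 1.16 with at least 8 lists and constructs minus empty vector -1.69 with at least 12. The causes were not tested.

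With the replicate number as a block the within-label differences were 0.157 for breadth, 0.165 for fold rank (adjusted p = 0.00119) and 129 bp for summit distance (adjusted p = 0.0125), the p by exact permutation, and no call changed. The numbers do not pair the libraries: over 21 pairs of labels the correlation of deviations between same-numbered libraries had a median of -0.01 and was over 0.1 in 3. The lists hold no read totals, so depth could not be matched. The disagreement between labels and peak names leaves the construct behind each label undecided.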
